A study of Mus musculus with 9 samples.

Results

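The let-7 family is a set of microRNAs (miRNAs), short RNAs that guide Argonaute proteins to messenger RNAs and lower their output. Its members descend from one of the first miRNAs described, found in the nematode Caenorhabditis elegans, where it times the passage from larva to adult. In mammals the mature strands build up as cells differentiate, the RNA-binding proteins LIN28A and LIN28B block their maturation in early embryonic cells, and messenger RNAs of growth genes such as Hmga2, Ras genes and Lin28 itself are among their targets. Target choice rests mainly on the seed, bases 2 to 8 of the mature strand, which the family shares. Each hairpin precursor gives a guide strand, here always the 5p arm, and a 3p arm that is mostly discarded.

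The members were taken by name: the 5p arms of let-7a, b, c, d, e, f, g and i and of miR-98. These are 9 of the 1129 miRNA rows in the table of counts, and 9 of 9 passed the filter on low counts, which left 447 rows for testing. Small RNA had been sequenced from back skin of female C57BL/6 mice aged 6 months, 3 libraries in each of 3 groups. All animals were anesthetised with pentobarbital sodium and wounded on the back with a punch 8 mm across. The day 0 group is the skin the punch removed, the day 7 group is skin from the wound edge 7 days later, and the third group is skin from diabetic mice.

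On the day of these diabetic libraries the labels are contradictory: a T7 stands in the sample titles, a T0 in the table's columns, and the treatment text speaks of skin taken at wounding. The effect of the day and that of the diabetic model therefore cannot be told apart in the diabetic group. How diabetes was induced is not said, nor whether each library is 1 animal, so p-values measure the spread between these libraries, which may be technical. The libraries held 2537167 to 5453539 counts, with 667 to 805 rows detected in each. All 10 keratinocyte markers, such as miR-203-3p and miR-205-5p, were above 0 in every group. In whole skin, fewer cells of a type and less RNA per cell cannot be told apart.

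The mature sequences are shown because the members differ by so few bases that the identity of each row rests on them. They come from RefSeq (mouse assembly GRCm38.p6), which held all 9. The capitals mark the seed.

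mmu-let-7a-5p: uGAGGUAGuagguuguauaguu
mmu-let-7b-5p: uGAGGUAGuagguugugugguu
mmu-let-7c-5p: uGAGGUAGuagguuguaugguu
mmu-let-7d-5p: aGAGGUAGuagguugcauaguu
mmu-let-7e-5p: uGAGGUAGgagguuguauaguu
mmu-let-7f-5p: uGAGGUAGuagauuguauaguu
mmu-let-7g-5p: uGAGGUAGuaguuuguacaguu
mmu-let-7i-5p: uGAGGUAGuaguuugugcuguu
mmu-miR-98-5p: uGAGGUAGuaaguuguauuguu

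All 9 strands are 22 bases long and share 1 seed. Counted from 1 at the 5′ end and with let-7a-5p as the reference, let-7c-5p differs by A19G, let-7e-5p by U9G and let-7f-5p by G12A. let-7b-5p differs by A17G and A19G, let-7d-5p by U1A and U16C, let-7g-5p by G12U and U18C, and miR-98-5p by G11A and A19U. let-7i-5p is the most distant from let-7a-5p, with G12U, A17G, U18C and A19U. Of the 36 pairs of members, 4 differ at 1 base and 10 at 2 bases, and the most distant pair differs at 6. How many mismatches the authors' counting allowed is not given in the sources used here, so reads may have been split between such neighbours. A row holding the sum of all 9 members was therefore tested as well. It does not depend on that split if each read was counted in 1 row only. Outside the family some rows have the same values, such as miR-142b and miR-142a-3p, so some reads may have been counted more than once. Whether this touched the members was not tested, and the library totals and the tested rows include such pairs.

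The hairpins lie at several places in the genome, and some share a primary transcript. On GRCm38.p6, Mir98 is at chrX:151913214-151913321 and Mirlet7f-2 at chrX:151912346-151912428, both on the plus strand in an intron of the ubiquitin ligase gene Huwe1 with 785 bases between them. Mirlet7a-1, Mirlet7f-1 and Mirlet7d lie together on chromosome 13 in a long noncoding RNA gene. Mirlet7c-2 and Mirlet7b lie 621 bases apart on chromosome 15. Mirlet7g sits in an intron of Wdr82 on chromosome 9, and Mirlet7i is on chromosome 10, apart from the other members. Since let-7a-5p, let-7c-5p and let-7f-5p each come from more than 1 hairpin, their rows cannot show which locus was used. The counts were made on the older build mm9, per the submitters' processing notes, and the table carries no coordinates.

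Levels were compared as CPM (counts scaled to a common library size) after TMM scaling, which sets a typical miRNA to no change between libraries. All 9 strands have the same length, and their CPM was not corrected for length. The order given here is one of counts. How evenly the strands were captured and assigned was not tested. mmu-let-7i-5p was the most abundant, with a mean of 25266 CPM over the 9 libraries, followed by mmu-let-7f-5p at 20110. mmu-let-7g-5p and mmu-let-7c-5p came next at 9657 and 7492 CPM, then mmu-let-7a-5p at 2931 and mmu-let-7b-5p at 2424. The 3 scarcest were mmu-let-7e-5p at 544, mmu-let-7d-5p at 494 and mmu-miR-98-5p at 324 CPM.

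Some steps in this order were clear of the spread between libraries and others were not. The lowest let-7f-5p value lay above the highest let-7g-5p value, and the same held for let-7c-5p over let-7a-5p and for let-7b-5p over let-7e-5p. Neighbours whose ranges overlapped were let-7i-5p and let-7f-5p (let-7i-5p higher in 7 of 9 libraries), let-7g-5p and let-7c-5p (9 of 9), and let-7a-5p and let-7b-5p (7 of 9). let-7e-5p exceeded let-7d-5p in 5 of 9 libraries, and let-7d-5p exceeded miR-98-5p in 7 of 9.

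**Figure D1:**
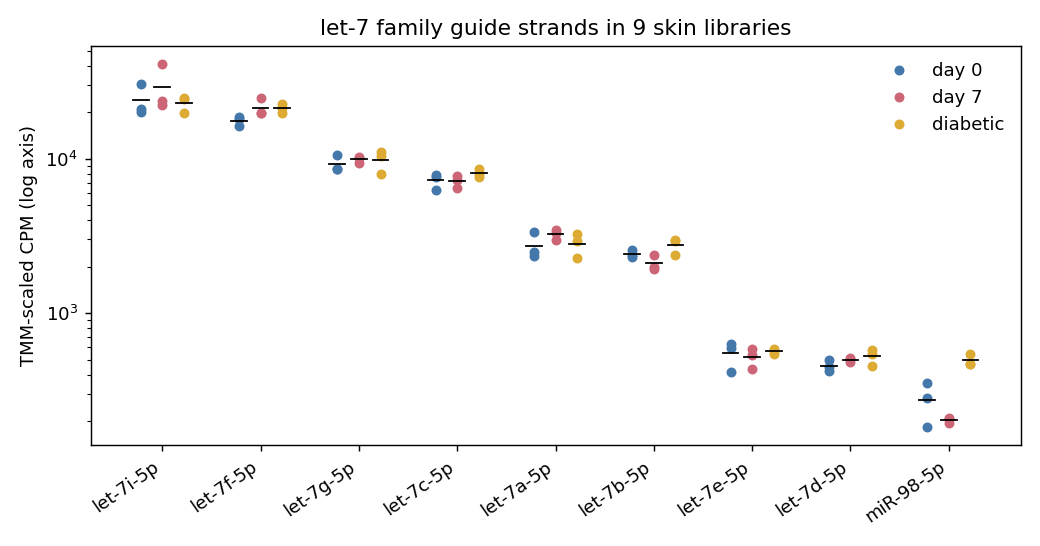
CPM after TMM scaling of the 9 guide strands, side by side on 1 log axis, with the libraries of each group as points and the group mean as a black bar. The 3 diabetic libraries sit between 471 and 547 CPM for miR-98-5p, above all day 0 and day 7 libraries, while the groups overlap or nearly meet for the other members.

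Within the family total, let-7i-5p, let-7f-5p, let-7g-5p and let-7c-5p together made up 89.0% to 92.3% of the counts in each library. let-7d-5p, let-7e-5p and miR-98-5p together made up 1.49% to 2.41%. The most uneven share was that of let-7i-5p. It took 49.0% of the family in day 7 replicate 1 and 45.0% in day 0 replicate 2, against 31.3% to 34.9% in the other 7 libraries.

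With TMM scaling the guide strands, apart from miR-98-5p, kept near the same level in all groups. The highest group mean exceeded the lowest by 1.07-fold for let-7g-5p and by 1.31-fold for let-7b-5p, the lowest and highest of the 8 let-7 strands. For miR-98-5p it was 2.45-fold. The median over all 447 tested rows was 1.49-fold, and 8 of the 9 members lay under it. These rows were not matched for abundance, so this does not set the members apart from other abundant miRNAs. Total-count scaling gave larger differences, as set out further below.

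The first comparison, day 7 against day 0, asks what the wound edge changes relative to skin at wounding. None of the 9 guide strands passed the test (edgeR quasi-likelihood F test, Benjamini-Hochberg adjustment over 447 rows, called at an adjusted p under 0.05), against 12.8% of all tested rows. At an unadjusted p under 0.05 the count was also 0; DESeq2 called 0 of 9 members and 17.2% of all rows it tested. limma on log2(TPM + 1) called 3 members lower, where it called 31.1% of all rows. The TPM values are scaled by the library total, so limma ran with total-count scaling. The median log2 fold change was 0.10 over the members and 0.08 over all tested rows.

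mmu-let-7f-5p was the one member whose libraries did not overlap between day 0 and day 7, where 30.4% of the tested rows had ranges apart. It stood at 18512, 16290 and 18113 CPM on day 0 and at 19632, 24809 and 19888 CPM on day 7. Its log2 fold change was 0.28 (SE 0.16, edgeR adjusted p 0.298), and it was 0.087 without day 7 replicate 2 and 0.16 without day 0 replicate 2. The gap between the groups is narrow: the lowest day 7 library is close to the highest day 0 library.

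mmu-let-7i-5p measured 20026, 30586 and 20895 CPM on day 0 and 41017, 23684 and 22423 CPM on day 7. One library in each group stood high, and the groups overlapped. The log2 fold change of 0.29 (SE 0.26, edgeR adjusted p 0.498) came to -0.11 without day 7 replicate 1.

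mmu-miR-98-5p stood at 182, 353 and 280 CPM on day 0 and at 208, 207 and 193 on day 7. The day 7 libraries were close together and lay within the wide day 0 range. Its log2 fold change was -0.42 (SE 0.22, edgeR adjusted p 0.239). Without day 0 replicate 1, the lowest of its group, it was -0.71 with an edgeR adjusted p of 0.0238.

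The other members had log2 fold changes from -0.21 for let-7b-5p to 0.25 for let-7a-5p. The summed family measured 63640, 67472 and 61187 CPM on day 0 and 83448, 72178 and 66107 on day 7. These ranges overlapped, and day 7 replicate 1 was the highest library. The fold change of the sum was 0.21 on the log2 scale (95% interval -0.20 to 0.61, edgeR adjusted p 0.488). It ran from 0.056 without day 0 replicate 3 to 0.26 without day 7 replicate 3, and came to 0.073 without day 7 replicate 1. RLE size factors gave 0.11 and DESeq2 0.089. Within replicate numbers the sum was higher on day 7 in 3 of 3 pairs (exact sign-flip p 0.25, the smallest that 3 pairs allow).

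**Figure D2:**
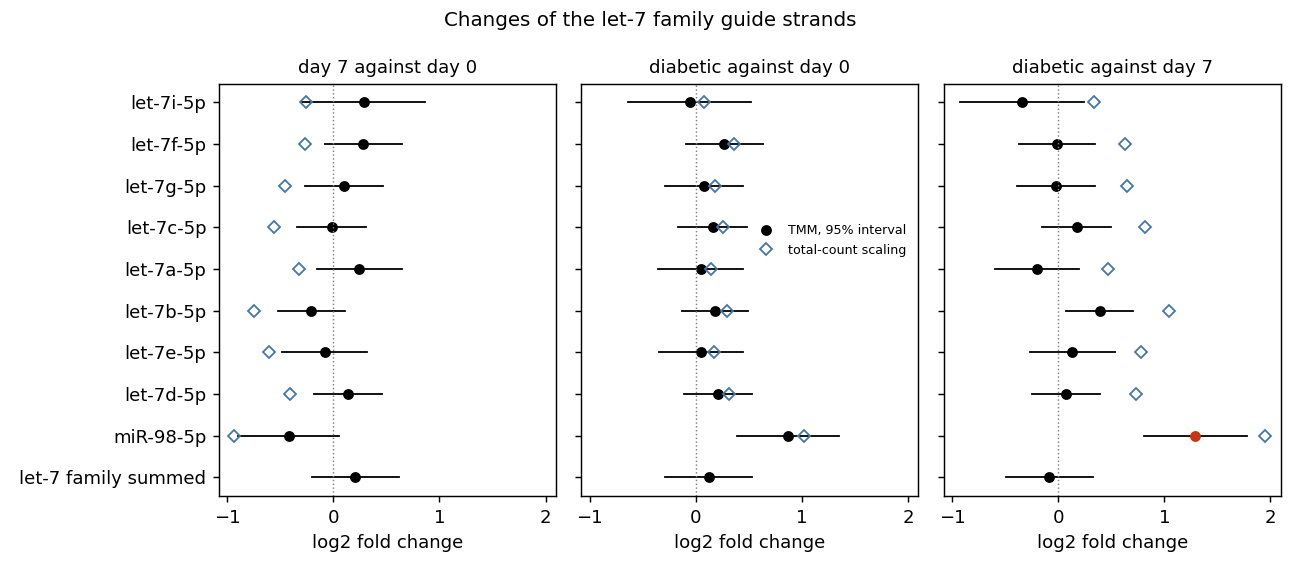
Log2 fold changes of the 9 guide strands and of their sum in the 3 comparisons; black points with lines are edgeR estimates with TMM scaling and 95% intervals, a red point has an adjusted p under 0.05, and hollow diamonds use total counts for scaling. The single red point is miR-98-5p in diabetic against day 7 at 1.29, and the diamonds lie to the left of the points in the first panel and to the right in the third.

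The second comparison sets the diabetic group against day 0. Of the 9 guide strands 0 were called by edgeR, and of all tested rows 0%. At an unadjusted p under 0.05 there were 1 of 9 members and 40 of 447 rows; DESeq2 called 1 member and 8 rows (1.7%), and limma called 0 members and 1 row (0.224%). The members' median log2 fold change was 0.16, against 0.04 over all tested rows.

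The member past the unadjusted threshold was mmu-miR-98-5p, at 547, 471 and 471 CPM in the diabetic libraries against 182, 353 and 280 on day 0. Every diabetic library lay above every day 0 library. The log2 fold change was 0.87 (SE 0.22, 95% interval 0.39 to 1.35), with an unadjusted p of 0.00217 and an edgeR adjusted p of 0.217. DESeq2 gave an adjusted p of 0.0398, and edgeR with no filter on low counts gave 0.0330. mmu-let-7f-5p also had ranges apart, with diabetic values of 19710, 22609 and 21426 CPM, a log2 fold change of 0.27 (SE 0.16) and an edgeR adjusted p of 0.680. Ranges were thus apart for 2 of 9 members, against 13.9% of the tested rows. The summed family differed by 0.12 on the log2 scale (95% interval -0.29 to 0.53, edgeR adjusted p 0.843), from 0.021 without day 0 replicate 3 to 0.18 without day 0 replicate 2. Within replicate numbers the diabetic library was higher in 3 of 3 pairs (exact sign-flip p 0.25, the smallest that 3 pairs allow).

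In the third comparison, diabetic against day 7, mmu-miR-98-5p was higher in the diabetic group, 496 ± 43.6 CPM against 203 ± 8.37 CPM (SD, n = 3 each). The lowest diabetic library, at 471 CPM, exceeded the highest day 7 library, at 208 CPM. The log2 fold change was 1.29 (SE 0.22, 95% interval 0.81 to 1.78), which is 2.45-fold, with an edgeR adjusted p of 0.00227. It was the only member called, 1 of 9, where 19.9% of all tested rows were called. DESeq2 also called 1 member, with 18.6% of all rows. limma, again with total-count scaling, called 6, with 43.4% of all rows. In 21 of 21 alternative settings the call held, with log2 fold changes from 1.21 to 1.95 and adjusted p-values from 1.42e-07 to 0.0115. Its counts ran from 401 to 3990 per library.

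mmu-let-7b-5p had the next largest increase in fold. It stood at 1923, 2002 and 2371 CPM on day 7 and at 2912, 2959 and 2379 CPM in the diabetic libraries. The ranges were apart only by the narrow step between day 7 replicate 3 and diabetic replicate 3. The log2 fold change was 0.39 (SE 0.14, edgeR adjusted p 0.0808), and 0.52 with an edgeR adjusted p of 0.0363 without diabetic replicate 3. Ranges were apart for these 2 of 9 members, against 38.3% of the tested rows.

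The remaining 7 members ran from -0.34 for let-7i-5p to 0.17 for let-7c-5p on the log2 scale. mmu-let-7f-5p, the other member from the Huwe1 intron, had a log2 fold change of -0.01 (SE 0.16, edgeR adjusted p 0.982), but its row also holds the strand from chromosome 13. The members' median was 0.07, against -0.02 over all tested rows. For the summed family the diabetic libraries measured 71466, 74966 and 62741 CPM, overlapping with day 7. The log2 fold change was -0.08 (95% interval -0.49 to 0.32, edgeR adjusted p 0.770). Within replicate numbers the sum was higher in the diabetic library in 1 of 3 pairs (exact sign-flip p 0.5).

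Markers of several cell types moved between the same groups. Beside the higher miR-98-5p of diabetic skin against day 7, 6 of 10 keratinocyte markers were called higher, and their summed level was 66501 to 94418 CPM in the diabetic libraries against 59813 to 64590 CPM on day 7. Of 6 blood leukocyte markers 5 were called lower, with sums of 727 to 902 CPM against 1731 to 2334 CPM. Of 4 erythroid markers 3 were lower, with sums of 712 to 1054 CPM against 1624 to 2875 CPM. No marker of these lists was at 0 in any group. Their part in the miR-98-5p result was not tested. Of 4 fibroblast markers edgeR called 1, miR-199b-5p, higher, at a log2 fold change of 1.49. miR-199a-5p at -0.34 and miR-214-3p at -0.49 had the other sign, and 3 of 4 had an unadjusted p under 0.05. The summed fibroblast level was 14622 to 15471 CPM in the diabetic libraries and 13894 to 14327 CPM on day 7. Of the other lists, 0 of 4 striated muscle and 0 of 2 endothelial markers were called by edgeR, with 1 and 0 at an unadjusted p under 0.05.

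The choice of library scaling moved the whole family. miR-21a-5p, a miRNA induced in skin wounds, took 40.6% to 55.6% of all counts on day 7, against 18.6% to 33.2% on day 0 and 13.7% to 19.4% in the diabetic libraries. Scaling by total counts put the median of all tested rows, as a log2 fold change, at -0.46 in day 7 against day 0 and at 0.61 in diabetic against day 7. The members followed, with medians of -0.46 and 0.73. On that scale 3 members were lower on day 7 than on day 0: let-7b-5p at -0.75, let-7e-5p at -0.61 and miR-98-5p at -0.93, with edgeR adjusted p-values of 0.0320, 0.0294 and 0.0149. All rows called on that scale were 29.8%.

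Diabetic against day 7 gave 6 members higher with total counts, where 44.3% of all rows were called. These were let-7b-5p at 1.04, let-7c-5p at 0.82, let-7d-5p at 0.73, let-7e-5p at 0.78, let-7f-5p at 0.63 and miR-98-5p at 1.95 on the log2 scale. Diabetic against day 0 gave 0 members by edgeR and 0.224% of all rows, with 1 member at an unadjusted p under 0.05.

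As a share of all counts, the 9 members took 8.06%, 6.96% and 6.44% on day 0, 5.96%, 5.52% and 5.40% on day 7, and 9.60%, 8.95% and 6.37% in the diabetic libraries. Every day 7 library lay below every other library. The 95% Wilson interval of each share, which covers counting error only, was at most 0.0299 percentage points to either side. The group means were 7.15% ± 0.828, 5.63% ± 0.294 and 8.30% ± 1.71 (SD, n = 3 each). The difference between day 7 and day 0 was -1.53 percentage points and that between diabetic and day 7 was 2.68, each with an exact two-sided permutation p of 0.1, the smallest that 3 against 3 allows, and 0.15 after adjustment over 3 comparisons. Diabetic against day 0 differed by 1.15 points (exact permutation p 0.4), and by 0.51 without diabetic replicate 1 and 2.12 without diabetic replicate 3.

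When the counts of miR-21a-5p were left out of the total, day 7 had the highest mean instead of the lowest, and diabetic stayed above day 0. The family then took 9.73% ± 0.794 on day 0, 11.4% ± 2.18 on day 7 and 10.01% ± 2.35 in diabetic skin (SD, 3 libraries each). The groups overlapped in all 3 comparisons, with differences of 1.67 points for day 7 minus day 0 (exact permutation p 0.3), 0.28 for diabetic minus day 0 (0.8) and -1.39 for diabetic minus day 7 (0.6). Libraries with the same replicate number deviated together, and within these numbers the share was higher on day 7 than on day 0 in 3 of 3 pairs, by 3.53, 1.24 and 0.24 points. It was lower in the diabetic library than on day 7 in 3 of 3 pairs. Both paired differences had an exact sign-flip p of 0.25, the smallest that 3 pairs allow.

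**Figure D3:**
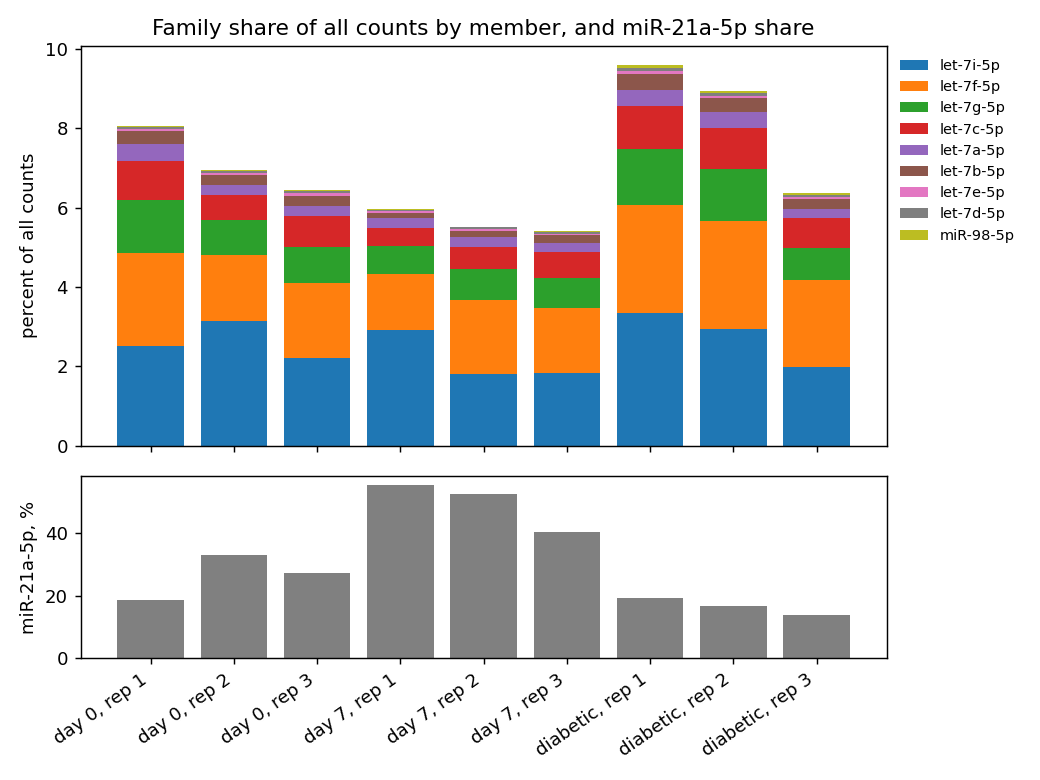
Share of each library's counts taken by the 9 guide strands, broken down by member, in the upper panel, and the share taken by miR-21a-5p in the lower panel, both in percent of all counts with 1 bar per library. The 3 day 7 libraries have the lowest family shares, 5.40% to 5.96%, and the highest miR-21a-5p shares, 40.6% to 55.6%.

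Shares of the family total do not depend on library scaling, but a higher share of 1 member lowers those of the others. miR-98-5p made up 0.285%, 0.518% and 0.458% of the family on day 0, 0.248%, 0.285% and 0.293% on day 7, and 0.781%, 0.631% and 0.749% in the diabetic libraries. The diabetic libraries lay above all others. let-7b-5p made up 4.02%, 3.41% and 3.89% on day 0, 2.30%, 2.75% and 3.59% on day 7, and 4.16%, 3.96% and 3.79% in the diabetic libraries, so that day 7 and diabetic did not overlap. The lowest let-7b-5p share, 2.30%, was that of day 7 replicate 1, where let-7i-5p took 49.0% of the family. Over 27 comparisons of member shares, the smallest adjusted p of the exact permutation test was 0.844, since no single p can go below 0.1.

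The 3p arms are the strands that share a hairpin with these guides. Of 12 listed, 11 were in the table and 9 were tested. edgeR called 0 of 9 in each of the 3 comparisons, with 0, 0 and 1 at an unadjusted p under 0.05; DESeq2 called 0 in each. limma called 1 lower, 0 and 3 higher, beside 31.1%, 0.224% and 43.4% of all rows. The median log2 fold changes of the 9 were -0.25, -0.24 and 0.04 in the 3 comparisons. Of the 9 arms 0, 3 and 5 were above 0, beside 242, 239 and 212 of all 447 tested rows.

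miR-98-3p, picked out after its values were seen because it shares the miR-98 hairpin, had 2.50, 5.37 and 4.74 CPM on day 0, 3.24, 3.01 and 2.41 on day 7, and 6.71, 8.29 and 4.83 in the diabetic libraries. Each diabetic library was above each day 7 library. The log2 fold change from day 7 to diabetic was 1.19 (SE 0.39, edgeR adjusted p 0.0539), beside 1.29 for the guide strand. These values rest on 5 to 49 counts per library. let-7f-2-3p, from the neighbouring Huwe1 hairpin, had a log2 fold change of 0.41 (SE 0.37, edgeR adjusted p 0.454) on 7 to 29 counts.

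**Figure D4:**
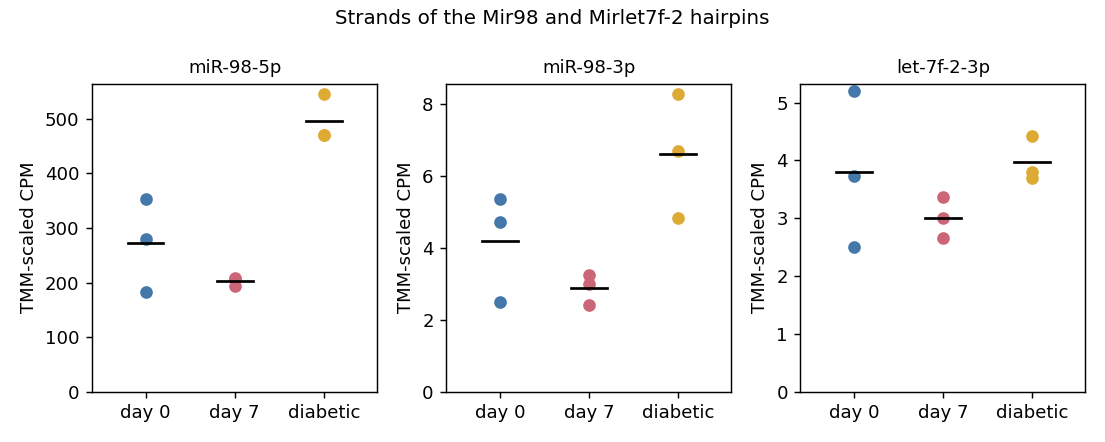
CPM after TMM scaling of both arms of miR-98 and of let-7f-2-3p from the neighbouring hairpin, with libraries as points and group means as black bars. Both miR-98 arms have their highest group mean in the diabetic group, with libraries at 471 to 547 CPM for the 5p arm and 4.83 to 8.29 CPM for the 3p arm.

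let-7d had the highest 3p arm relative to its guide among the arm pairs compared. For each 100 counts of let-7d-5p there were 36.5, 40.4 and 38.9 counts of let-7d-3p on day 0, 27.8, 26.4 and 33.8 on day 7, and 31.7, 26.3 and 34.3 in the diabetic libraries. The day 0 libraries lay above all others. For let-7a-1-3p the figures per 100 counts of let-7a-5p were 1.75, 2.26 and 1.96 on day 0, 1.33, 1.15 and 1.62 on day 7, and 1.71, 1.59 and 1.44 in the diabetic libraries, again with day 0 on top. let-7i-3p stood at 0.0897, 0.101 and 0.0891 per 100 counts of let-7i-5p on day 0. The diabetic libraries lay below, at 0.0634, 0.0508 and 0.0754, and day 7 overlapped with both. For miR-98 the ratio ran from 1.03 to 1.76 and the groups overlapped. They also overlapped for the 3p arms of let-7b, let-7c-1, let-7e and let-7g. No test was made of these ratios, and they were not measured for miRNAs outside the family. let-7a-5p and let-7c-5p each come from more than 1 hairpin, so the ratios for let-7a-1-3p and let-7c-1-3p are not those of 1 hairpin.

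**Figure D5:**
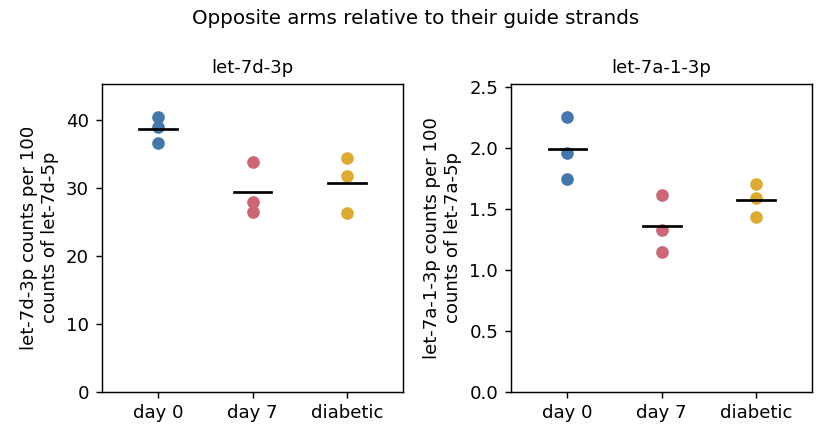
Counts of the 3p arm per 100 counts of the 5p arm for let-7d-3p and let-7a-1-3p, with libraries as points and group means as black bars. For let-7d the day 0 libraries lie between 36.5 and 40.4 and the other libraries between 26.3 and 34.3. let-7a-5p comes from more than 1 hairpin, so the let-7a-1-3p ratio is not that of 1 hairpin.

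Some let-7 hairpins are transcribed together with miR-99, miR-100 and miR-125 hairpins, whose guide strands have other seeds. Of 5 such guide strands edgeR called 0, 0 and 1 in the 3 comparisons in the order above, beside 12.8%, 0% and 19.9% of all tested rows. At an unadjusted p under 0.05 there were 0, 3 and 2 of them, beside 126, 40 and 156 of 447 rows. DESeq2 called 0, 1 lower and 1 lower, beside 17.2%, 1.7% and 18.6% of all rows. limma called 2 lower, 0 and 0, beside 31.1%, 0.224% and 43.4% of all rows. With TMM scaling the one called was miR-125b-5p, lower in the diabetic group at 1701, 1673 and 1600 CPM than on day 7 at 2245, 2243 and 2435, with a log2 fold change of -0.48 (SE 0.12, edgeR adjusted p 0.0180). With total-count scaling the direction turned, to a log2 fold change of 0.17 (edgeR adjusted p 0.495). miR-99a-5p had the highest level of the 5, with 8481, 8540 and 7000 CPM in the diabetic libraries against 13198, 10998 and 12044 on day 0, a log2 fold change of -0.59 and an edgeR adjusted p of 0.271.

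Likeness between rows was measured as Pearson's r of log2(CPM + 0.5) over the 9 libraries, which share their scaling, so it is given as a description. The most alike pair of members was let-7a-5p and let-7g-5p (r 0.92, Spearman's rho 0.73), followed by let-7d-5p and let-7g-5p (0.82, rho 0.75) and by let-7b-5p and let-7c-5p (0.77, rho 0.88). let-7i-5p was the least like the others, with a highest r of 0.26. For miR-98-5p the nearest members were let-7b-5p (0.63, rho 0.45) and let-7e-5p (0.57, rho 0.48). Outside the family, the rows most like the summed family were miR-455-3p (0.89), miR-18a-5p (0.86), miR-455-5p (0.84), miR-30e-5p (0.78) and miR-362-5p (0.78).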

How the data were processed

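Small RNA libraries from 9 skin samples were analysed from 1 table, in which the authors deposited whole-number read counts beside TPM values, by miRNA and library, per the file headers. The deposited TPM equals the CPM of the library total, with a largest difference of 4.7e-10. The submitters' processing notes name Bowtie, DESeq 3.0.3 and the build mm9, with no roles. No source used here gives the mismatch settings. Diabetic columns and sample titles were matched on the letter T plus the number.

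Counts were tested with edgeR 4.0.16 in R 4.3.3 (quasi-likelihood F test, TMM, filterByExpr set to at least 10 counts and a total of at least 15, 1 fit over 9 libraries, Benjamini-Hochberg over 447 rows). The filter left out 0.0217% of counts. A fold change is thus relative to the rest of the miRNAs. Standard errors come from the F statistic. Shares were compared by exact permutation tests in SciPy 1.17.1. The edgeR fit was tried on simulated counts with known changes, and the other steps were not. DESeq2 1.42.0, limma 3.58.1 on log2(TPM + 1), other scalings and filters, and leaving out each library served as alternatives.

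The members, the lists and the rule for the rows named were chosen with earlier results of these data known. The rule names the 9 members, the most abundant 3p arms and cluster partners, miR-21a-5p and the rows most alike; miR-98-3p and let-7f-2-3p were added after their values were seen. No pair of libraries was a duplicate. Libraries with the same replicate number deviated together in 9 of 9 pairs (r from 0.10 to 0.48). The same number gave the highest r in 8 of 9 pairs, and with miR-122-5p left out 8 of 9 exceeded 0.1. miR-122b-3p, which has the same CPM as miR-122-5p in each library, stayed in that check. The 9 pairs reuse the same libraries, so they are not independent. No label states a pairing, and replicate 3 had the fewest counts in each group. What libraries of the same number share was not tested. The numbers were also fitted as a block.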

Additional observations from a re-analysis of the deposited data

How the results depend on the processing

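With the replicate block, 0, 0 and 1 of the 9 members were called in the 3 comparisons in the order of the report, the same counts as without it, and miR-98-5p in diabetic against day 7 had an edgeR adjusted p of 0.0017. Differences of family share within replicate numbers, an analysis chosen after seeing the data, had exact sign-flip p-values of 0.25, 0.5 and 0.25 with the same differences of means. The block changed no call of a member, of the summed family, of a 3p arm or of a cluster partner. In day 7 against day 0, 3 members were called with total counts and 3 with limma, beside 29.8% and 31.1% of all rows. limma ran on TPM, which is scaled by the library total, so it shares the scaling of total counts. Total counts also called 1 of the 3p arms and 2 cluster partners. The summed family turned to -0.35 with total counts and -0.34 with limma. In diabetic against day 0, 1 member was called with DESeq2, beside 1.7% of all rows. With no filter 1 member was called, where 4 rows were called higher and 6 lower of 1129. In diabetic against day 7, 6 members were called with total counts and 6 with limma, beside 44.3% and 43.4% of all rows. Total counts also called 3 of the 3p arms and 0 cluster partners. The summed family turned to 0.56 with total counts and 0.54 with limma. Without miR-21a-5p in the denominator, the differences of family share turned to 1.67 and -1.39 points. The cause was not tested.

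Leaving out 1 library at a time gave 0 to 1, 0 to 0 and 1 to 2 members called in the 3 comparisons. In day 7 against day 0, the 1 came without day 0 replicate 1, where 36 rows were called higher and 30 lower of 480. In diabetic against day 7, the 2 came without diabetic replicate 3, where 38 rows were called higher and 39 lower of 473. The summed family ran from 0.056 to 0.26, from 0.021 to 0.18 and from -0.13 to 0.030. The difference of family share ran from -1.88 to -1.07, from 0.51 to 2.12 and from 2.03 to 3.65 points. Members with family shares apart numbered 0, 1 and 2 in the 3 comparisons with all libraries. Leaving out 1 library gave 0 to 3, 1 to 2 and 2 to 4. Ranges lie apart by chance more often when a group has fewer libraries, so the higher counts cannot be read as a result about the members. No such count is given for other rows.

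Several settings changed the sign of log2 fold changes of members that were not called with TMM. In day 7 against day 0 the values were let-7a-5p -0.32, let-7d-5p -0.41, let-7f-5p -0.27, let-7g-5p -0.46, let-7i-5p -0.26 with total counts, then let-7a-5p -0.28, let-7d-5p -0.40, let-7f-5p -0.26, let-7g-5p -0.43, let-7i-5p -0.28 with limma, then let-7c-5p 0.019 with a mean CPM of at least 10. There followed let-7d-5p -0.065, let-7g-5p -0.11 with upper-quartile scaling, then let-7d-5p -0.057, let-7g-5p -0.097 with the family total, then let-7g-5p -0.010 with DESeq2. Last came let-7g-5p -0.021 with no filter. In diabetic against day 0 the values were let-7i-5p 0.080 with total counts, then let-7i-5p 0.062 with limma, then let-7a-5p -0.061, let-7e-5p -0.029, let-7g-5p -0.023 with upper-quartile scaling. There followed let-7a-5p -0.068, let-7e-5p -0.045, let-7g-5p -0.035 with the family total, then let-7a-5p -0.018, let-7e-5p -0.0074 with DESeq2, then let-7a-5p -0.0050 with RLE size factors. Last came let-7a-5p -0.0096, let-7e-5p -0.024 with miR-21a-5p taken out of the total counts. In diabetic against day 7 the values were let-7a-5p 0.47, let-7f-5p 0.63, let-7g-5p 0.64, let-7i-5p 0.34 with total counts, then let-7a-5p 0.42, let-7f-5p 0.63, let-7g-5p 0.60, let-7i-5p 0.34 with limma, then let-7d-5p -0.0090 with a mean CPM of at least 10. There followed let-7f-5p 0.092, let-7g-5p 0.083 with upper-quartile scaling, then let-7f-5p 0.077, let-7g-5p 0.062 with the family total, then let-7f-5p 0.030, let-7g-5p 0.027 with DESeq2. Last came let-7f-5p 0.083, let-7g-5p 0.076 with no filter, then let-7f-5p 0.016, let-7g-5p 0.013 with RLE size factors, then let-7d-5p -0.0019 with miR-21a-5p taken out of the total counts. The remaining value was let-7g-5p 0.011 with let-7a-5p, let-7c-5p and let-7f-5p summed. Leaving out 1 library at a time, sign changes ran over these ranges in day 7 against day 0: let-7c-5p from -0.18 to 0.025, let-7g-5p from -0.025 to 0.14, let-7i-5p from -0.11 to 0.43. The ranges in diabetic against day 0 were let-7a-5p from -0.074 to 0.22, let-7e-5p from -0.12 to 0.14, let-7g-5p from -0.021 to 0.18, let-7i-5p from -0.17 to 0.13. The ranges in diabetic against day 7 were let-7f-5p from -0.031 to 0.16, let-7g-5p from -0.069 to 0.14, let-7i-5p from -0.46 to 0.036. Of these reversed values, 2 were called in the alternative, let-7f-5p in diabetic against day 7 with total counts and with limma. With 3 libraries a group, the exact tests of shares cannot go below 0.1. Rows with under 50 counts a library, such as miR-98-3p, are limited by counting error. No spike-in was used here to choose between TMM and total-count scaling.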

Other observations

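let-7j is a row of the table outside the 9 members. Its RefSeq strand has 24 bases, and its first 22 differ from let-7i-5p by G8U, a change inside the seed, counted from 1 at the 5′ end. Its counts were 30, 34 and 13 on day 0, 34, 8 and 8 on day 7, and 45, 9 and 12 in the diabetic libraries. The ranges of the 3 groups overlapped.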
